A study of Mus musculus with 6 samples.

Results

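The Polo-like kinases are a family of serine/threonine kinases encoded in the mouse by Plk1 to Plk5, and their transcripts were followed in primary cardiomyocytes with and without the M90I variant of RIT1. The members were the 5 genes of that name among the 54532 genes listed. The family was selected on measured values: it was proposed with the AdCre and AdGFP FPKM values of this table already known. Differences between AdCre and AdGFP in Plk1 to Plk5 are therefore given as a description. Counts of members called are printed only beside the share over all genes, and nothing is read from them.

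Each family member except Plk5 is known as an active kinase, and the family shares a C-terminal polo-box region that binds partners and substrates. Plk1 drives entry into mitosis, spindle assembly and cytokinesis, and Plk4 starts the duplication of centrioles. Plk2 and Plk3 are known as inducible genes that respond to serum, growth factors and cell stress, and both have been linked to p53. Plk5 is best known from the brain and is regarded as lacking kinase activity.

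RNA-seq was carried out on cultures of heart cells from neonatal mice 1 to 3 days old. All cultures carried a modified Rit1 locus that expresses the M90I allele once Cre has recombined it, and all were infected with an adenovirus on day 3. The 3 AdGFP samples received a virus encoding GFP and are labelled Rit1 +/+, and the 3 AdCre samples received a virus encoding Cre and are labelled Rit1 M90I/+. By the study's methods, cells were plated at about 1 heart per well and RNA was taken on day 6 after infection. No samples given Cre without the M90I allele were analysed here, so the variant and Cre itself cannot be told apart. The labels call the samples of a group biological replicates and number them, but do not say whether they differ by culture, litter or day or what the same number shares across groups. The p-values measure only the spread between these samples. Values are FPKM (fragments per kilobase of exon, adjusted for sequencing depth), and log2 values and differences are of FPKM + 0.1.

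The 6 libraries held between 25.3 and 32.4 M reads (M, megareads) as worked back from FPKM, and 1 FPKM in a gene with 2 kb of exon stood for 49.3 to 64.1 reads. Rit1 itself lay between 7.66 and 9.01 FPKM in AdGFP and between 8.90 and 9.58 FPKM in AdCre, a gene-level value that does not separate the alleles. The cultures were mixed. All 8 cardiomyocyte markers were detected in every sample, with a summed level of 2138 to 2830.2 FPKM in AdGFP and 1329 to 1875 FPKM in AdCre. Summed fibroblast markers lay between 2589 and 4644 FPKM in AdGFP and between 2272 and 3324 FPKM in AdCre. Summed endothelial markers were 48.2 to 78.1 FPKM in AdGFP and 67.4 to 104 FPKM in AdCre, and macrophage markers 45.3 to 249 FPKM and 81.2 to 309.7 FPKM. Epicardial markers summed to between 113 and 258 FPKM in AdGFP and between 92.1 and 142 FPKM in AdCre, and smooth muscle markers to between 751 and 1267 FPKM and between 903 and 1148 FPKM. None of these markers was at 0 in all samples. In limma without the replicate number as a block 0 markers were called, with 6 of the cardiomyocyte and 2 of the endothelial markers at an unadjusted p under 0.05. With the block, 6 of 8 cardiomyocyte, 3 of 8 fibroblast and 1 of 6 epicardial markers were called lower in AdCre, beside 3.51% of all genes, and 3 of 8 endothelial and 1 of 7 tested macrophage markers higher, beside 2.64%. These calls were lost without the variance trend or without pair 3, and without pair 2 they came to 4 cardiomyocyte markers. Without pair 1, 6 cardiomyocyte, 1 fibroblast and 4 epicardial markers were called lower. In that fit 2 endothelial, 1 macrophage and 1 epicardial marker were called higher. AdGFP 1 was the lowest AdGFP sample for 7 of 7 macrophage, 7 of 8 fibroblast, 5 of 6 epicardial and 6 of 8 endothelial markers, beside 40.8% of all genes. Of the 6 smooth muscle markers, 0 were called in either fit, and 0 had an unadjusted p under 0.05. In bulk RNA, fewer cells of a type and less RNA per cell cannot be told apart, and the part of cell makeup in the values of Plk1 to Plk5 was not tested.

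The sequences before the start sites of Plk5, Plk3 and Plk2 are shown because these are the members with the largest differences between groups or between samples. Each is the 250 bases upstream of the RefSeq start site in GRCm38.p6, written 5′ to 3′ on the strand of the gene, at chr10:80356209-80356458 (+) for Plk5, chr4:117133964-117134213 (-) for Plk3 and chr13:110394794-110395043 (+) for Plk2. Capitals mark matches, on either strand, to the motifs searched.
Plk5: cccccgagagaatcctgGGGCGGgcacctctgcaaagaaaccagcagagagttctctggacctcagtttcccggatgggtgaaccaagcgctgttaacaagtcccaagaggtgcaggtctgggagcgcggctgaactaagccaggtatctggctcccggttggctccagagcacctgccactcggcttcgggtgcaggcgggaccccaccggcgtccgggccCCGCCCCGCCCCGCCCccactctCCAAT
Plk3: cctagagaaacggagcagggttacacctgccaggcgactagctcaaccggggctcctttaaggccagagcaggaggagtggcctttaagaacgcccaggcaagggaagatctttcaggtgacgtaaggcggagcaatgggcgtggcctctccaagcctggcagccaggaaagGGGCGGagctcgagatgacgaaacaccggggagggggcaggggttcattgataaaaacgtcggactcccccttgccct
Plk2: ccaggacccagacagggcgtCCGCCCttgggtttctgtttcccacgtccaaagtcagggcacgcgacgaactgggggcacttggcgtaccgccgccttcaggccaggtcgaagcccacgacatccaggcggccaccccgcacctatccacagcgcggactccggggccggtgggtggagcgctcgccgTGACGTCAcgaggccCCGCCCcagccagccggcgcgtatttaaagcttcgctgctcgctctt

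The Plk5 sequence held 4 GC boxes (GGGCGG, the element known to bind SP1), 3 of them in 1 run just before the start, followed by a CCAAT box 5 bases before the start. Plk3 held 1 GC box. Plk2 held 2 GC boxes and a cAMP response element (CRE, TGACGTCA), whose first base lay 62 bases before the start. Among 32851 promoter windows of 300 bases, 250 before and 50 after a start site, the CRE was present in 1.79%, the GC box in 35.7% and the CCAAT box in 37.4%. In the windows of the other members, Plk1 held a CCAAT box, a GC box and the cell cycle element CHR (TTTGAA, in 17.9% of windows), and Plk4 held an ETS motif (CCGGAAG, in 8.86%). The letters of an AP-1 site (TGANTCA, in 7.81% of windows), a CArG box (in 1.63%), an E-box (CACGTG, in 7.15%) and a p53 half-site (in 8.36%) were in none of the windows of the 5 genes. These are matches of letters, not measured binding sites, and nothing follows from them about any factor.

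All 5 genes were detected in all 6 samples, and their order of level was Plk2, Plk1, Plk3, Plk4 and Plk5. Over the 6 samples the mean levels were 37.4 FPKM for Plk2, 16.7 FPKM for Plk1, 7.13 FPKM for Plk3, 3.78 FPKM for Plk4 and 1.43 FPKM for Plk5. The log2 gaps between the 4 pairs of neighbours in this order are given with no test, since the order was read from the same values. Plk2 exceeded Plk1 in 6 of 6 samples, by a mean of 1.05 (SD 0.89). Plk1 exceeded Plk3 by 1.22 (SD 0.49) and Plk3 exceeded Plk4 by 0.88 (SD 0.42), each in 6 of 6 samples. Plk4 and Plk5 lay far apart in AdGFP, with gaps of 3.55, 3.48 and 3.74, and closer in AdCre, with gaps of -0.34, 0.96 and 1.26. In AdCre 1 Plk5 was the higher, at 3.80 FPKM against 2.99 FPKM for Plk4.

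**Figure D1:**
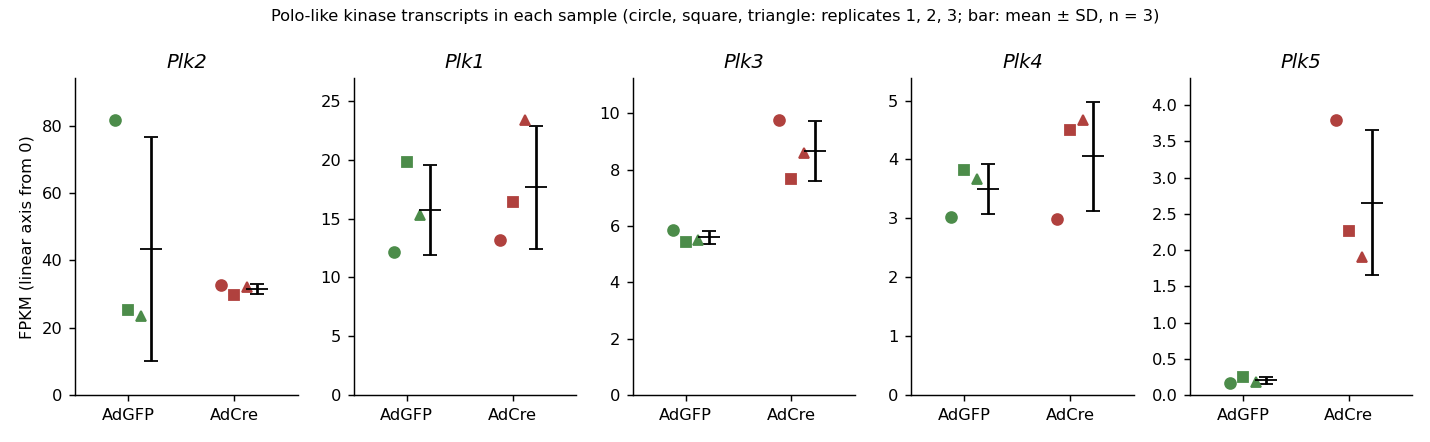
FPKM of Plk1 to Plk5 in each of the 6 samples, with 1 panel per gene on its own linear axis from 0, symbols for replicates 1, 2 and 3, and a bar at the mean ± SD of each group (n = 3). Plk5 and Plk3 are the members whose groups do not overlap, and AdGFP 1 stands alone at the top of Plk2 at 81.7 FPKM.

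Taken as a sum, the 5 transcripts came to 103.0, 54.5 and 47.9 FPKM in AdGFP 1 to 3 and to 62.4, 60.6 and 70.6 FPKM in AdCre 1 to 3. Plk2 was 79.4% of that sum in AdGFP 1 and between 45.4% and 52.4% in the other samples. Plk5 was 0.161%, 0.460% and 0.379% of the sum in AdGFP and 6.10%, 3.75% and 2.69% in AdCre. The family sum thus ranged most in AdGFP, through Plk2, while the share of Plk5 did not overlap between groups.

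Plk5 showed the largest difference of the family. Plk5 (ENSMUSG00000035486, chr10:80356459-80365489, plus strand, 2678 bases of exon over 4 annotated transcripts) stood at 0.166, 0.250 and 0.182 FPKM in AdGFP and at 3.80, 2.27 and 1.90 FPKM in AdCre. The groups did not overlap, and AdCre 1 was the highest. The means were 0.199 ± 0.0447 FPKM (SD, n = 3) in AdGFP and 2.66 ± 1.01 FPKM (SD, n = 3) in AdCre, a ratio of 13.3. The log2 difference was 3.15 (SE 0.33, 95% interval 2.37 to 3.94), the 6th largest of 13794 genes. Within replicate numbers it was 3.87, 2.76 and 2.83. The gene passed the minimum mean of 0.5 FPKM only through its AdCre samples, so it could be among the genes tested only by being higher there.

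In reads, Plk5 came to 11, 17 and 12 in AdGFP 1 to 3 and to 326, 157 and 141 in AdCre 1 to 3. The exact 95% Poisson intervals were 5.49 to 19.7, 9.90 to 27.2 and 6.20 to 21.0 reads in AdGFP, and 292 to 363, 133 to 184 and 119 to 166 reads in AdCre. These intervals cover counting error only, are drawn on the values that chose the family, and are no test between groups. The small counts in AdGFP leave the size of the ratio loosely set. The log2 difference was 1.57 with a pseudocount of 1, 3.63 with one of 0.01 and 3.73 with voom on the recovered reads. No 50-base word of the Plk5 transcripts occurred, in the same orientation, in an annotated transcript of another gene. No annotated gene overlapped its exons on either strand.

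The genes around Plk5 on chromosome 10 were set beside it. Of 18 genes that start within 100 kb of Plk5, 13 were expressed enough to test, and 8 of the 13 were higher in AdCre. Their log2 differences ran from -0.37 for Adamtsl5, whose start lies at -8.05 kb from that of Plk5, to 0.43 for Apc2. In limma, 0 of the 13 passed at an adjusted p under 0.05 with or without the replicate number as a block, and at an unadjusted p under 0.05 there were 0 without the block, beside 10.2% of all genes, and 1 with it, beside 24.7%.

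**Figure D2:**
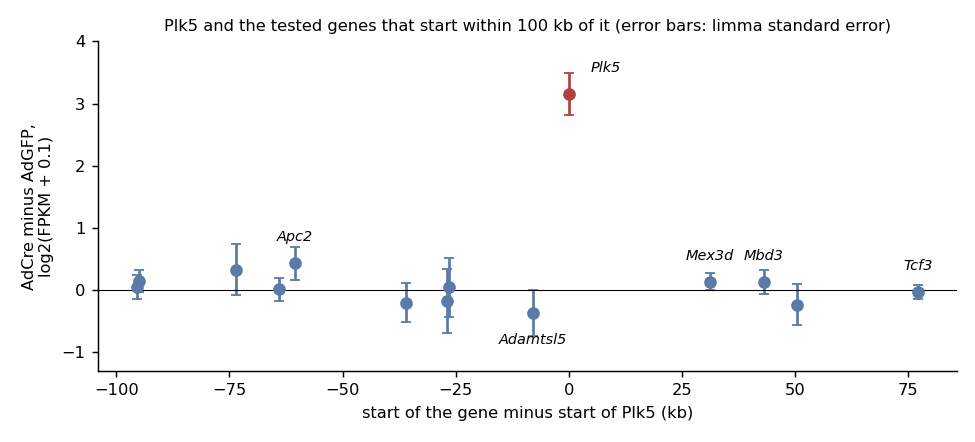
Log2 difference, AdCre minus AdGFP, of Plk5 and of the tested genes around it, against the distance of each start site from that of Plk5 in kb, with bars of 1 SE. Plk5 stands at 3.15, and its 13 neighbours lie between -0.37 and 0.43.

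Plk3, a stress-responsive kinase, was also higher in AdCre. Plk3 (ENSMUSG00000028680, chr4:117128655-117133963, minus strand, 2531 bases of exon) stood at 5.87, 5.42 and 5.50 FPKM in AdGFP and at 9.77, 7.65 and 8.58 FPKM in AdCre. The AdGFP samples lay close together, and all 3 AdCre samples lay above them. The means were 5.60 ± 0.238 FPKM and 8.67 ± 1.06 FPKM (SD, n = 3 each), a ratio of 1.55. The log2 difference was 0.62 (SE 0.13, 95% interval 0.31 to 0.92), and 0.73, 0.49 and 0.63 within replicate numbers. Reads came to between 343 and 367 in AdGFP and between 500 and 792 in AdCre. The antisense gene Tctex1d4 covers 3.32% of the exon bases of Plk3, and since the use of strand in counting is not given in the sources used here, its reads cannot be told apart there.

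Plk2, the most abundant member and an early-response kinase, did not show a direction that held across samples. Plk2 (ENSMUSG00000021701, chr13:110395046-110400844, plus strand, 4491 bases of exon) stood at 81.7, 25.2 and 23.3 FPKM in AdGFP and at 32.6, 29.7 and 32.1 FPKM in AdCre. AdGFP 1 was the highest and the other AdGFP samples the lowest, with the AdCre samples between them. The means were 43.4 ± 33.2 FPKM and 31.5 ± 1.55 FPKM (SD, n = 3 each), a ratio of 0.725. The log2 difference was -0.21 (SE 0.45, 95% interval -1.28 to 0.87). Without AdGFP 1, the AdGFP mean was 24.2 FPKM and the log2 difference turned to 0.38 (SE 0.12). Within replicate numbers the differences were -1.32, 0.24 and 0.46. The sign of the Plk2 difference thus rested on AdGFP 1, which stood 3.37-fold above the mean of AdGFP 2 and 3. Plk2 came to 9073 reads in AdGFP 1, against 2868 and 2579 in AdGFP 2 and 3. In AdGFP 1, 114 of 13794 genes (0.826%) stood at least as far above AdGFP 2 and 3 by mean log2 level.

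Plk1, the mitotic kinase, differed between groups by less than its spread. Plk1 (ENSMUSG00000030867, chr7:122159439-122169873, plus strand, 2199 bases of exon over 3 transcripts) stood at 12.2, 19.8 and 15.3 FPKM in AdGFP and at 13.1, 16.4 and 23.4 FPKM in AdCre. The groups overlapped, and AdCre 3 was the highest. The means were 15.8 ± 3.83 FPKM and 17.7 ± 5.24 FPKM (SD, n = 3 each), a ratio of 1.12, and the log2 difference was 0.15 (SE 0.26, 95% interval -0.45 to 0.76). Within replicate numbers it was 0.11, -0.27 and 0.61. Its sign turned to -0.02 without AdGFP 1 and to -0.07 without AdCre 3. The difference of Plk1 was 0.33 without AdGFP 2 and 0.34 without AdCre 1. Of its 50-base words, 6.56% also occur in other transcripts, those of the pseudogene Plk-ps1, and the antisense gene Gm44985 covers 7.09% of its exon bases, so that share of its reads cannot be assigned with certainty.

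Plk4, the regulator of centriole duplication, also overlapped between groups. Plk4 (ENSMUSG00000025758, chr3:40800019-40816883, plus strand, 6855 bases of exon over 10 transcripts) stood at 3.02, 3.82 and 3.66 FPKM in AdGFP and at 2.99, 4.50 and 4.68 FPKM in AdCre. AdCre 1 was the lowest of all and AdCre 3 the highest. The means were 3.50 ± 0.422 FPKM and 4.06 ± 0.926 FPKM (SD, n = 3 each), a ratio of 1.16, and the log2 difference was 0.19 (SE 0.20, 95% interval -0.30 to 0.67). Within replicate numbers it was -0.01, 0.23 and 0.34. With 1 sample left out it ran from 0.07 (without AdCre 3) to 0.39 (without AdCre 1). The overlap of the groups in both cell cycle kinases does not show that they were alike.

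**Figure D3:**
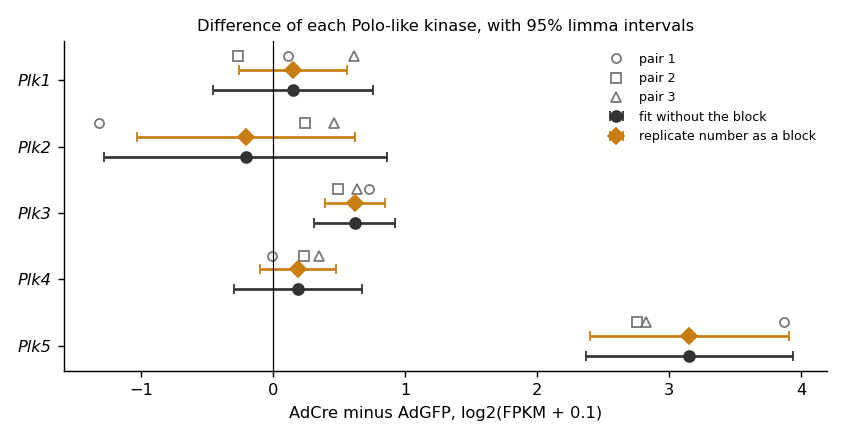
Difference in log2(FPKM + 0.1), AdCre minus AdGFP, for Plk1 to Plk5, with 95% limma intervals from the fit without the block (dark circles) and with it (orange diamonds), and open symbols for the difference within each replicate number. The difference is 3.15 for Plk5 and 0.62 for Plk3, and the differences within replicate numbers lie on both sides of 0 for Plk1, Plk2 and Plk4.

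Against all genes, these counts read as follows and are given only as description. The contrast chose the family, and Plk5 was among the genes tested only through its AdCre samples. With limma and no block, 0 of the 5 members were called at an adjusted p under 0.05, 2 had an unadjusted p under 0.05, and voom on the recovered reads also called 0. Over all genes 0.00725% were called, either direction together, and 1402 genes had an unadjusted p under 0.05. With the replicate number as a block, 2 of 5 members, Plk3 and Plk5, were called higher, beside 2.64% of all genes called higher and 3.51% called lower. Neither blocked call stood in every blocked fit. Plk3 was called in 3 of 6 and was not called without pair 2, without pair 3 or without the variance trend. Plk5 was called in 4 of 6 and was not called without pair 3 or without the variance trend. Of the blocked calls over all genes 42.9% were higher, and 61.0% after rescaling to TPM. In 2 of 5 members the lowest AdCre value was above the highest AdGFP value, beside 7.36% of genes, and in 0 of 5 was the reverse true, beside 8.02%.

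Over the 6 samples, which include the differences between groups that chose the family, Pearson's r of the log2 levels was 0.96 between Plk3 and Plk5 and 0.85 between Plk1 and Plk4, and between -0.54 and 0.26 for the other pairs. Among protein-coding genes, those most like Plk5 were Lbhd2 (r = 0.997), Cdkl2 (r = 0.996) and Arpc3 (r = 0.993). Lbhd2 stood at 0.362, 0.412 and 0.303 FPKM in AdGFP and at 1.96, 1.39 and 1.29 FPKM in AdCre. Cdkl2, which encodes a CDK-like kinase, stood at 0.974, 1.16 and 1.09 FPKM in AdGFP and at 3.12, 2.39 and 2.15 FPKM in AdCre. Both were picked for their likeness to Plk5 over these samples, so a like separation of the groups was fixed by the choice, and Lbhd2 too passed the minimum level only through AdCre.

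Most like Plk3 were Atp1b3 (r = 0.995), a sodium pump subunit, Smpdl3b (r = 0.994) and Ccne1 (r = 0.993), which encodes cyclin E1. Ccne1 stood at 11.4, 10.2 and 10.4 FPKM in AdGFP and at 19.5, 16.4 and 17.4 FPKM in AdCre. It too was picked for its likeness over these samples, so a like separation of the groups was fixed by the choice. Most like Plk2 were Cachd1 (r = 0.999), the chaperone gene Hspa8 (r = 0.993) and Ckap4 (r = 0.986). Most like Plk1 were Pm20d1 (r = 0.989), Tada3 (r = 0.985) and Evi2a (r = 0.976), and most like Plk4 were Tnfrsf18 (r = 0.991), Adgra2 (r = 0.989) and Pmel (r = 0.989). With 6 samples a high r is common. The 100th gene by r still had 0.894 for Plk1, 0.927 for Plk2, 0.952 for Plk3, 0.928 for Plk4 and 0.945 for Plk5, and all of these values share their libraries.

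The genes that act with each kinase were set beside it, from lists that were written with earlier results of these data known. In the mitotic network of Plk1 (its activators, substrates and co-regulated mitotic genes), 28 of 28 genes were tested, 22 were higher and 6 lower in AdCre, and the median log2 difference was 0.13, beside -0.00218 over all genes. None of the 28 passed in limma with or without the block, and at an unadjusted p under 0.05 there were 0 without the block and 2 with it, below the 10.2% and 24.7% of all genes. The median turned to -0.01 without AdGFP 1 and was -0.0022 without AdCre 3, and it was 0.21 without AdGFP 2 and 0.27 without AdCre 1. By the smallest p in the blocked fit, the first genes were Wee1 (log2 difference -0.31), the kinase that restrains CDK1, Foxm1 (0.29), a transcription factor of mitotic genes, and Kif23 (0.27), a cytokinesis motor. Without AdGFP 1 the difference was 0.12 for Foxm1 and 0.04 for Kif23, without AdCre 3 it was 0.14 and 0.13, and without AdCre 1 it was 0.44 and 0.40. The mean log2 level of the list was 2.60, 3.01 and 2.85 in AdGFP 1 to 3 and 2.64, 2.93 and 3.21 in AdCre 1 to 3. Plk1 put the 6 samples in the same order, from AdGFP 1 at the bottom to AdCre 3 at the top.

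The centriole assembly list of Plk4 had 25 of 26 genes tested, with 11 higher, 14 lower and a median of -0.04. None passed in limma in either fit, and at an unadjusted p under 0.05 there were 2 without the block and 3 with it, beside 10.2% and 24.7% of all genes. Rescaling to TPM moved the median of all genes to 0.0850 and that of the list to 0.0488. Ccp110, which caps centrioles, had a log2 difference of 0.50, Spice1 had -0.60 and Rttn had -0.44, the last 2 also encoding centriole proteins. Spice1 was at -0.39 without AdCre 1. Of the substrates of Plk2 in RAS, RAP and synuclein biology, 4 of 6 were expressed enough to test, 2 of them higher and 2 lower. None passed in either fit, and at an unadjusted p under 0.05 there were 0 without the block and 1 with it. Sncb, a synuclein, had -0.61, and Sipa1l1, a regulator of small GTPases, had 0.13. With 1 sample left out, Sncb ran from -0.29 (without AdCre 3) to -1.05 (without AdCre 2), and Sipa1l1 was at 0.05 without AdGFP 1.

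Serum immediate-early genes, the class that Plk2 and Plk3 are known to behave like, comprised 22 tested genes, 15 higher and 7 lower in AdCre, and their median was 0.07. Without the block 0 of 22 passed in limma with 4 at an unadjusted p under 0.05 and 7 in the blocked fit, beside 10.2% and 24.7% of all genes. The median turned to -0.01 without AdGFP 3, was 0.0045 without AdGFP 2 and 0.12 without AdGFP 1. With the block 2 rose, Nr4a1 and Maff, beside 2.64% of all genes. Nr4a1, a nuclear receptor, stood at 7.59, 6.09 and 5.55 FPKM in AdGFP and at 10.6, 9.05 and 9.03 FPKM in AdCre, a log2 difference of 0.58 (limma with the block, adjusted p = 0.0286, higher in 3 of 3 pairs). Maff, a basic leucine zipper factor, stood at 10.2, 8.69 and 7.44 FPKM in AdGFP and at 14.1, 12.1 and 9.73 FPKM in AdCre. Its groups overlapped, and the log2 difference was 0.44 (limma with the block, adjusted p = 0.0388). Neither call stood in every blocked fit. In limma the adjusted p of Nr4a1 was 0.0820 with the block and no variance trend, 0.110 without pair 2 and 0.132 without pair 3. That of Maff was 0.0976 without the trend and 0.0781, 0.161 and 0.137 without pair 1, 2 and 3. AdGFP 1 was the highest AdGFP sample for 13 of the 22 genes, and for 13 of 20 p53 targets, beside 41.3% of all genes, and the lowest for 23 of the 28 mitotic genes. The part of this shift in the level of Plk2 was not tested. Atf3 was at 22.9 FPKM there against 6.33 and 3.90 FPKM in AdGFP 2 and 3, and Klf4 at 38.5 against 15.6 and 11.6 FPKM. Egr1 went the other way, at 7.82 FPKM in AdGFP 1 against 28.6 and 39.2 FPKM. These 3 genes were chosen after their values were seen, as those in which AdGFP 1 stood farthest from the other AdGFP samples.

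**Figure D4:**
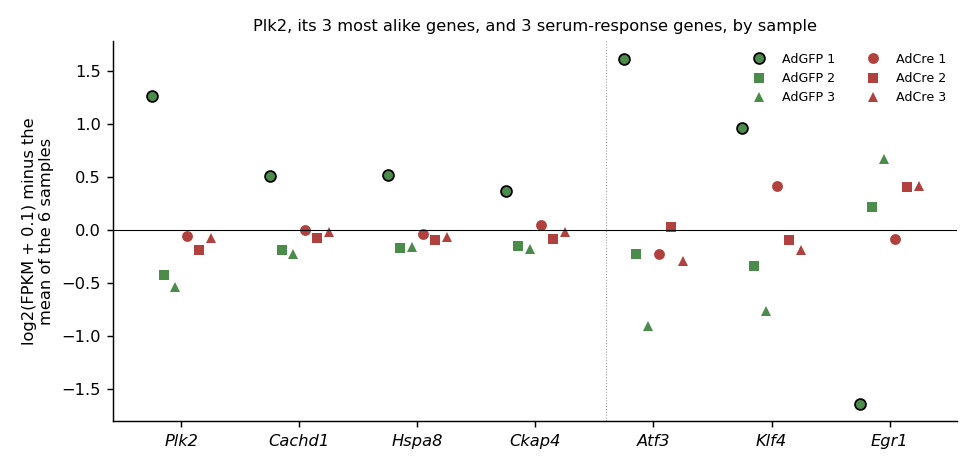
Level of Plk2, of the 3 genes most like it (Cachd1, Hspa8 and Ckap4) and of Atf3, Klf4 and Egr1 in each sample, as log2(FPKM + 0.1) minus the mean of the 6 samples. AdGFP 1, outlined in black, is the highest sample for the first 6 genes and the lowest for Egr1, at 7.82 FPKM.

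Of 20 targets of p53, all were tested, 13 were higher and 7 lower, and the median was 0.08. The median was 0.18 without AdGFP 1, 0.16 without AdCre 1, 0.12 without AdCre 2 and 0.17 on TPM, and it turned to -0.02 with the block and without pair 3. In limma 0 of 20 passed without the block, and 4 had an unadjusted p under 0.05, beside 5 in the blocked fit (10.2% and 24.7% of all genes). In the blocked fit 1 rose, beside 2.64% of all genes. It was Cdkn1a, which encodes the CDK inhibitor p21. Cdkn1a stood at 129, 98.2 and 97.5 FPKM in AdGFP and at 164, 142 and 144 FPKM in AdCre, a log2 difference of 0.48 (limma with the block, adjusted p = 0.0328). This call was lost in the blocked fits without the variance trend (limma, adjusted p = 0.1001), without pair 2 (0.146) and without pair 3 (0.141). The groups of Cdkn1a did not overlap, and neither did those of Plk3. Groups apart with AdCre higher were found in 2 of the 20 targets, beside 7.36% of all genes. Groups apart with AdCre lower were found in 0 of the 20, beside 8.02%. A link between Plk3 and the p53 targets was not tested.

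**Figure D5:**
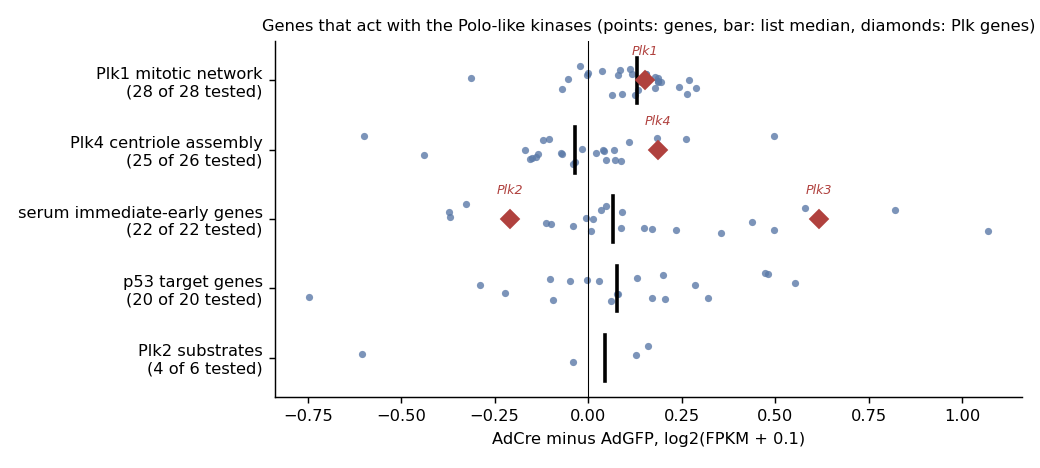
Difference in log2(FPKM + 0.1), AdCre minus AdGFP, of each tested gene in 5 lists of genes linked to the kinases, with 1 point per gene, a bar at the median of each list and red diamonds for Plk1 to Plk4 beside their lists. The medians lie between -0.04 and 0.13, and the listed genes run from -0.75 to 1.07.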

How the data were processed

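RNA-seq of 6 samples of mouse primary cardiomyocyte cultures was used, 3 AdGFP and 3 AdCre, grouped by the labels. The deposited values are FPKM per gene made by the authors, 1 column per sample. The submitters' processing notes name fastp, STAR 2.5, HTSeq 0.6.1 and mm10, and which annotation and strand setting were used is not given in the sources used here. Of 54532 gene IDs, 54495 matched GENCODE M21 (GRCm38), which gave symbols, exon lengths and coordinates. Reads were worked back from FPKM and exon length, and 98.1% of values under 200 reads came out whole within 0.05 of a read.

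Genes averaging 0.5 FPKM or more over the 6 samples (13794) were fitted as log2(FPKM + 0.1) on group in limma 3.58.1 (R 4.3.3), using eBayes with trend and Benjamini-Hochberg adjustment. On this scale the fold change of a low gene is understated. A gene is called at an adjusted p under 0.05. Deviations from the group means correlated at 0.568, 0.268 and 0.506 between same-numbered samples and at -0.497 to 0.036 otherwise. The replicate numbers were therefore taken to pair the samples, on the values alone, and a fit with the number as a block is given where it changes a call. The exact paired permutation test planned for levels of neighbouring members is not reported, since their order was read from the same values. The steps were tested on simulated data.

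The members, lists and tests were chosen with earlier results of these data known. Named genes were Plk1 to Plk5, called list members (at most 5, otherwise the 3 with the smallest p), and the 3 protein-coding genes with the highest r to each member. A gene that this rule names is not reported here. Promoters came from RefSeq (GRCm38.p6), which matched 5 of 5 members. The alternatives were other pseudocounts (1 and 0.01), no filter or a minimum mean of 1 FPKM, TPM rescaling, median centring, quantile normalization, no trend, the block, and the omission of single samples. Voom on recovered reads, and the block without trend, on TPM or without a pair, and levels averaged over same-numbered samples were chosen after seeing the data. Python 3.11.15, numpy 2.4.6, pandas 2.3.3 and scipy 1.17.1 were used.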

Additional observations from a re-analysis of the deposited data

How the results depend on the processing

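Over all genes limma called 1 gene. It called 3 with a pseudocount of 1, 4 without the trend, and 0 without the filter (2168 at an unadjusted p under 0.05). With voom it called 0 (1450 unadjusted), and between 0 and 2 when 1 sample was left out (780 to 1629 unadjusted). The replicate block, which pairs same-numbered samples, called 848 genes, and 875 on TPM, 772 without pair 1, 149 without pair 2, 1 without pair 3 and 0 without the trend (3122 unadjusted). The cause was not tested. Among the lists, the block called 2 serum genes, Nr4a1 and Maff, with 2 on TPM and 2 without pair 1, where Maff was not among them. It called 1 p53 target, 1 on TPM and 2 without pair 1, with a median of 0.21. Both lists lost these calls without the trend, pair 2 or pair 3. On TPM it called 1 centriole gene. The centriole median was 0.0488 on TPM, with or without the block, and 0.0281 with voom, where the median of all genes was also higher, at 0.0850 and 0.0599. It was -0.0926 to 0.0454 when 1 sample was left out. The block changed no call in the Plk1 and Plk2 lists.

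Over 21 alternatives the log2 difference ran from 0.53 to 0.70 for Plk3, 0.07 to 0.39 for Plk4 and 1.57 to 3.73 for Plk5. Its sign turned in 3 for Plk1 and in 2 for Plk2. For Plk3 and Plk5, whose groups do not overlap, no pseudocount and no omitted sample or pair could turn the sign. The filters, the variance trend and the block on all 6 samples leave the estimate as it is. Leaving out 1 sample gave log2 gaps of 0.71 to 1.19 for Plk2 over Plk1 and 1.09 to 1.38 for Plk1 over Plk3. For Plk3 over Plk4 it gave 0.72 to 0.96. Averaging same-numbered samples cannot change the mean gaps, which were again 1.05, 1.22 and 0.88. Depth limits Plk5 in AdGFP, at 11 to 17 reads.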
